A study of Mus musculus with 12 samples.

Results

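The comparison covered the 6 libraries of EMRK1184luc cells collected after 6 days of treatment, out of the 12 libraries of the study. Of these, 3 came from cells kept in 5 µM WM-1119 and 3 from cells kept in its vehicle, DMSO. EMRK1184luc is a single lymphoma line from a female Eµ-Myc mouse, in which a Myc transgene is driven by the immunoglobulin heavy chain enhancer, and it was infected with a luciferase lentivirus. The line, the transgene and the reporter are common to treated and control cells, and all were grown in high-glucose DMEM. The remaining 6 libraries hold both treatments after 3 days. The members were the rows of the count table with a numeric gene identifier, compared between the 6-day groups, and 11997 genes of the 26305 with an identifier had enough counts to be tested. Poly(A) RNA was sequenced from bulk cultures, so fewer cells of a type and less RNA per cell cannot be told apart. The 3 samples of a group are biological replicates per the design text, with no culture, day or batch given, and the p-values measure only the spread between these samples, which may be technical.

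WM-1119 is labelled as an inhibitor of KAT6A and KAT6B, histone acetyltransferases of the MYST family. Each works in a complex with a BRPF scaffold protein, an ING reader and MEAF6, and acetylates lysines on histone tails near active promoters and enhancers. In the blood system KAT6A is known for maintaining stem cells and B cell progenitors, for sustaining the expression of Hox genes, and for keeping the Cdkn2a locus, a brake on the cell cycle, at a low level. Loss of KAT6A function is known to slow the growth of Eµ-Myc lymphoma.

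The totals of the control libraries ran from 22831687 to 41749357 counts and those of the treated libraries from 14736267 to 17563985, so every treated library was shallower than every control library. Levels are CPM, counts scaled to the library's total times its TMM factor, and changes are log2 fold changes of WM-1119 over DMSO with their standard error. A gene passed the test, and is said to rise or fall, where the adjusted p of edgeR's quasi-likelihood test was under 0.05. Across genes, the lowest correlation of log2 CPM within a 6-day group was 0.992 and the highest between the groups 0.984. The 12 B cell markers summed to 3073 to 3259 CPM with DMSO and 3059 to 3240 CPM with WM-1119, with 1 of them, Ms4a1, at 1 count in all 6 libraries together and the others detected throughout. Of 12 T cell markers 8 were at 0, including Cd3e, and the sum did not pass 1.79 CPM. The 23 fibroblast markers differed between libraries of 1 group, with sums of 44.0, 31.5 and 19.8 CPM in DMSO replicates 1, 2 and 3 and 48.0, 73.3 and 14.6 CPM in WM-1119 replicates 1, 2 and 3. Counts of calls are given below with the level of these markers as a covariate, and without the libraries that held over 1 CPM of the collagen gene Col1a1.

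Of the 11997 genes, 3682 passed the test (30.7%), 1881 of them higher with WM-1119 (15.7%) and 1801 lower (15.0%). Most changes were small, with a median size of 0.34 on the log2 scale among called genes, and 1745 of the called genes (47.4%) differed by less than 1.25-fold. Changes over 2-fold were called for 213 higher genes (1.78%) and 278 lower genes (2.32%), and changes over 4-fold for 42 and 71. All 3 treated libraries lay above all 3 controls for 2566 genes (21.4%) and below them for 2387 (19.9%). Without the 4 libraries of 6 days with over 1 CPM of Col1a1 and the 1 of 3 days, each 6-day group holds 1 library, whose spread is assumed to be that of the other groups, and 1436 genes were called, 769 higher and 667 lower. Of the genes named here, 33 lost their call in that fit. Their log2 value was over 1.5 times nearer to 0 for Cdkn1b (-0.15), Hdac7 (-0.15), Bcl2 (-0.29), Gbp11 (-0.42), Ankrd37 (-1.75), Rpl6 (-0.22), Bbc3 (0.24), Ighm (0.12) and Cdkn3 (0.15). With the level of the fibroblast markers as a covariate 3662 genes were called, and of the genes named here Cdkn3 alone lost its call. The sum of these markers was led by Fbn1. At 6 days Fbn1 had 16.6 to 17.998 CPM with DMSO and 10.8 to 13.1 CPM with WM-1119, lower in every treated library. Col1a1 varied far more within a group, from 0.488 to 6.101 CPM with DMSO and from 0.408 to 12.9 CPM with WM-1119. The covariate thus tracks Col1a1 only in part and may hold some of the treatment effect. In a fit of the 6-day libraries with the replicate number as a block, 4294 genes were called, 2127 higher and 2167 lower. The counts of a gene list that this moved by over 1.5 times are given beside it. For the lists of polyamine synthesis and of cytosolic heat shock, the counts with the block are not given. Where 0 genes of a list are given in a direction by edgeR's test, 0 also had an unadjusted p under 0.05 in that direction and 0 were called by DESeq2 and limma voom, with an exception named below.

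**Figure D1:**
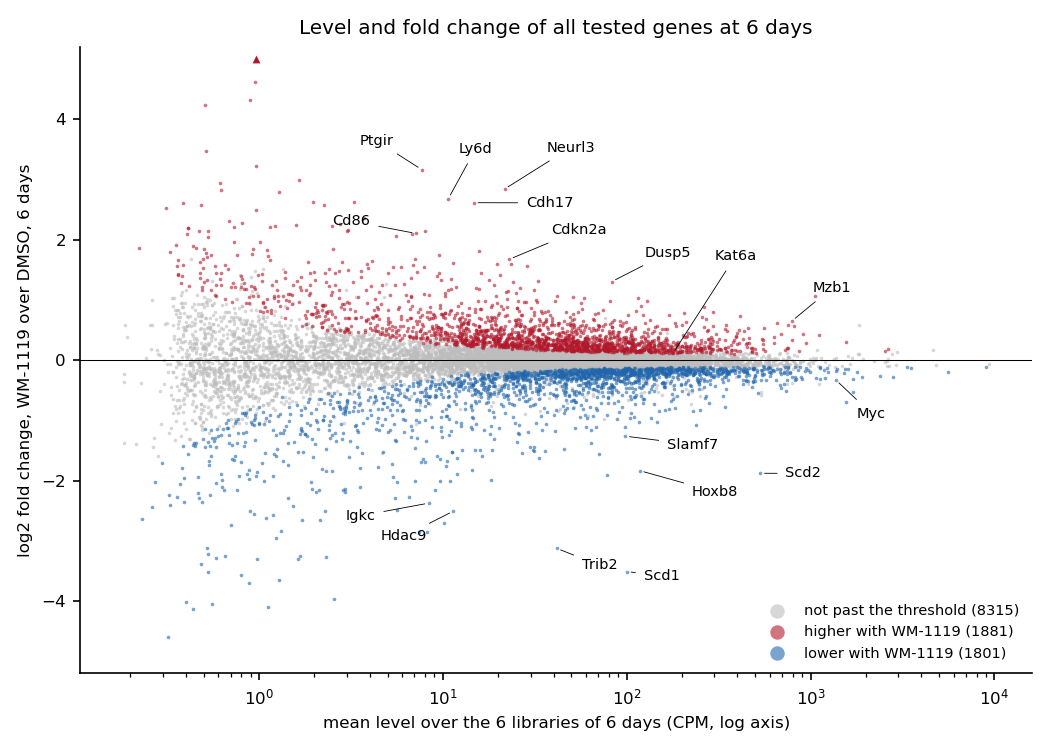
Each point is 1 of 11997 genes, with its mean CPM over the 6 libraries of 6 days on a log axis and its log2 fold change of WM-1119 over DMSO on the other axis. Red points are the 1881 genes called higher, blue points the 1801 called lower and grey points the rest, and the triangle is Hoxc4, drawn at 5. Scd1, Scd2, Hoxb8 and Trib2 stand apart among falls of well-measured genes and Neurl3 and Dusp5 among rises, while Kat6a lies near 0.

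Transcripts of the inhibitor's targets did not pass the test. Kat6a had 170.0, 169.6 and 174 CPM in DMSO replicates 1, 2 and 3 and 189.9, 176 and 186 CPM in WM-1119 replicates 1, 2 and 3. The treated libraries lay just above the controls, and the difference did not pass the test (log2 fold change 0.10 ± 0.05, adjusted p = 0.129). Kat6b had 25.8, 25.8 and 26.6 CPM and 25.9, 23.1 and 27.0 CPM, groups that overlap (log2 fold change -0.04 ± 0.07, adjusted p = 0.681). Of the 8 subunits of the KAT6 complexes tested, only Brpf3, a scaffold subunit, passed in this fit, with 29.3, 29.7 and 28.8 CPM against 33.8, 33.5 and 35.9 CPM (log2 fold change 0.23 ± 0.06, adjusted p = 0.00703). A second subunit was called when DMSO replicate 1 of 6 days or DMSO replicate 3 of 3 days was left out, and with the replicate block. Brpf1, Brd1, Ing4, Ing5 and Meaf6 had log2 values of 0.02, -0.08, 0.16, 0.08 and 0.17, none past the threshold. Among 18 subunits of the other MYST complexes, the acetyltransferase gene Kat7 had 0.02 and the one call was Jade2, a scaffold of the KAT7 complex. Jade2 had 41.8, 38.7 and 41.9 CPM with DMSO and 72.7, 72.7 and 76.8 CPM with WM-1119, a 1.81-fold rise without overlap (adjusted p = 1.53e-10). The calls in that list came to 2 without WM-1119 replicate 1 of 3 days and 3 without DMSO replicate 3 of 6 days.

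Among genes of the enzymes that remove acetyl groups, the class II histone deacetylase Hdac9 (chromosome 12, 34047580.0 to 34917095.0, mm10) fell most by fold. It had 21.2, 19.2 and 17.7 CPM in the controls and 3.71, 2.94 and 3.67 CPM in the treated libraries. Every treated library lay far below every control, a 5.68-fold fall (log2 fold change -2.51 ± 0.14, adjusted p = 1.08e-11). Hdac5, Hdac7 and Hdac11 fell by smaller steps, with log2 values of -0.35, -0.29 and -0.81. In all, 4 of the 15 deacetylase genes tested fell and 3 rose, 46.7% against 30.7% of all genes. The rises numbered 1 without any single treated library of 6 days. In the Polycomb group, whose complexes keep genes silent through histone methylation and ubiquitination, 7 of 28 genes fell and 4 rose. The methyltransferase gene Ezh2 had 285, 293 and 308 CPM against 226, 239 and 232 CPM (log2 -0.35), and Bmi1, a subunit of the ubiquitin ligase complex, 242, 216 and 258 CPM against 305, 271 and 304 CPM (log2 0.30). Neither pair of groups overlapped. The count of Polycomb genes that fell was 4 without DMSO replicate 1 and 3 without WM-1119 replicate 3, and that of genes that rose 2 without WM-1119 replicate 3. Lists in which about 30.7% of genes passed, as here with 39.3%, are near the share over all genes. For every list, the shares to set beside its counts are 15.7% of all genes higher and 15.0% lower.

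Lipid synthesis held the clearest falls. Scd1 (chromosome 19, 44394450.0 to 44407709.0), the gene of a stearoyl-CoA desaturase, which puts the first double bond into saturated fatty acids, had 186, 187 and 181 CPM with DMSO and 15.8, 14.9 and 18.2 CPM with WM-1119. The 3 libraries of each group lay close together and the groups were far apart, an 11.4-fold fall (log2 fold change -3.51 ± 0.07, adjusted p = 3.29e-18). Its paralog Scd2 (chromosome 19, 44293676.0 to 44306864.0) had 841, 831 and 845 CPM and 228, 233 and 224 CPM, a 3.67-fold fall with equally tight groups (adjusted p = 3.26e-16). Reads that both desaturase genes could share may have been split between them, since the treatment of multi-mapping reads is not given. Across the 25 tested genes of fatty acid and glycerolipid synthesis, 16 fell, 2 rose and the median was -0.34, against -0.004 over all genes. Gpam, whose product starts glycerolipid assembly, fell 1.75-fold, Acsl3, which activates fatty acids, 1.90-fold, and the polyunsaturated fatty acid desaturase gene Fads2 1.54-fold. The 2 rises became 0 without DMSO replicate 1 of 6 days, and 1 with the replicate block or without several other single libraries.

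Of the 21 genes of cholesterol synthesis, 19 fell and 0 rose, with a median of -0.74 on the log2 scale. The 2 that did not pass, named here after their values were seen, were Tm7sf2 (0.16) and Ebp (0.09), which act late in the pathway. Early in it, Hmgcs1 (chromosome 13) makes the precursor HMG-CoA and had 182, 173 and 179.7 CPM in the controls and 93.8, 90.2 and 90.5 CPM in the treated libraries (log2 -0.96 ± 0.05). Both groups of libraries were tight and did not overlap. Further along, Lss, which closes the sterol rings, had 55.8, 60.2 and 54.2 CPM and 22.9, 26.5 and 25.9 CPM (log2 -1.18 ± 0.07), while Cyp51 and Msmo1, which remove methyl groups from the ring, had log2 values of -1.03 and -1.15. Taken as 1 share of all gene counts, the 21 genes made up 0.221%, 0.220% and 0.220% of DMSO replicates 1, 2 and 3 and 0.147%, 0.146% and 0.147% of WM-1119 replicates 1, 2 and 3. The treated shares hardly varied and lay below all controls. The number of genes that fell was 19 in each of the fits that left out 1 of the 12 libraries.

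**Figure D2:**
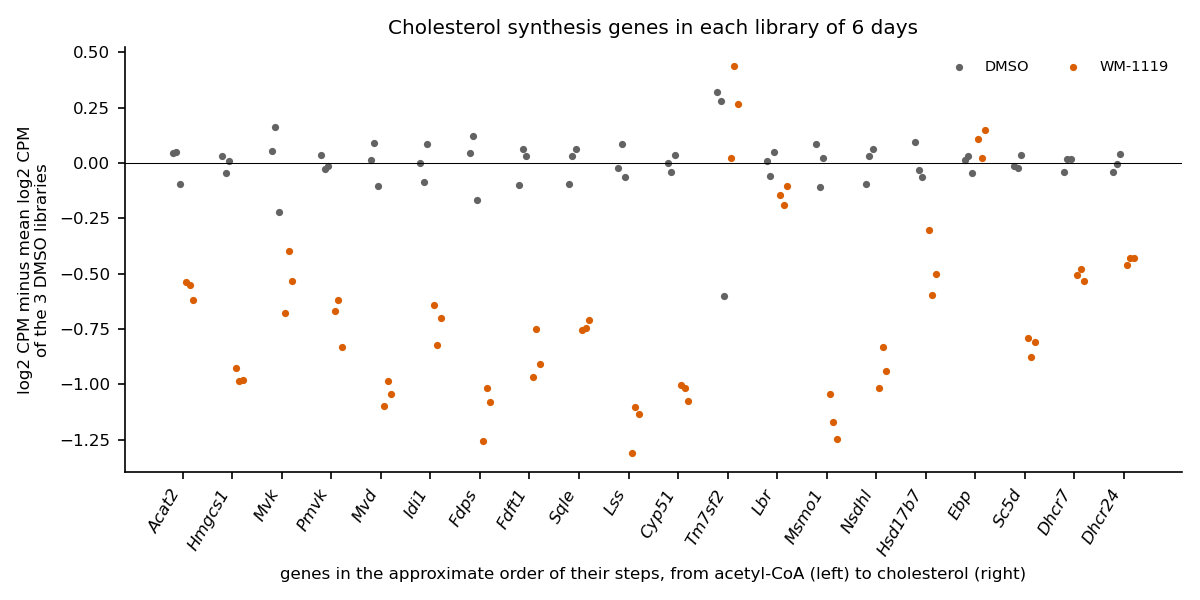
Log2 CPM of 20 of the 21 genes of cholesterol synthesis in each of the 6 libraries of 6 days, relative to the DMSO mean, in the order of the gene list. The points of WM-1119 lie below those of DMSO for the 18 genes shown that fell, and Tm7sf2 and Ebp did not pass the test.

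The promoters of these genes are known to be read by SREBP factors together with NF-Y. Of the 16 tested genes of the list with a RefSeq promoter window (250 bases before to 50 after the start, GRCm38.p6), 15 held the NF-Y box CCAAT on either strand (93.8%), and 43.9% of the 9235 tested genes with a window did. The box is not particular to genes that fell. It lay in 14 of 19 genes of MHC class I presentation with a window (73.7%), a list in which 17 rose and 0 fell. Among called genes with a window it lay in 47.3% of those lower and 41.0% of those higher. The sterol regulatory element TCACNCCAC was found in 1 of the 16, Hmgcs1, and in 1.38% of all genes with a window. In the list of sterol regulation, uptake and efflux it was found in 0 of 13. The 250 bases before the start of Hmgcs1 (chr13:119690101-119690350, plus strand) and of Lss (chr10:76531355-76531604, plus strand) are shown because both fell and differ in these motifs. Capitals mark matches on either strand, the NF-Y box read on the minus strand as ATTGG and the sterol element of Hmgcs1 as TCACCCCAC, which starts 137 bases before the start.
Hmgcs1: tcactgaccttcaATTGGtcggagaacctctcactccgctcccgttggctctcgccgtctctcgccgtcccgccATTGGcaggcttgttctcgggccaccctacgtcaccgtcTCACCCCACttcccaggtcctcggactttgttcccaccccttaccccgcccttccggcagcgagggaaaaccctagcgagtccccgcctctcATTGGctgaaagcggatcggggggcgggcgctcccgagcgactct
Lss: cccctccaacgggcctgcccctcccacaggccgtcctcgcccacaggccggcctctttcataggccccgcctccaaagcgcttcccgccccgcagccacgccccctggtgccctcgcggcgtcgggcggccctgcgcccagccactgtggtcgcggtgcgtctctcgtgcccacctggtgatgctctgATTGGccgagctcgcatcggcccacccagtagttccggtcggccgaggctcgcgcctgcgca
The window of Hmgcs1 held 3 NF-Y boxes before the start and that of Lss 1, 62 bases before it. A match is a run of letters and not a measured binding site.

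Of the 19 tested genes that regulate, take up or export sterols, 8 fell and 3 rose. Srebf2, the SREBP gene for cholesterol synthesis, had 393, 409.8 and 408 CPM and 262, 265 and 276 CPM (log2 -0.59 ± 0.04), and Srebf1, its counterpart for fatty acids, fell by a similar step (log2 -0.65 ± 0.05). Insig1, which holds SREBP in the endoplasmic reticulum and is itself an SREBP target, had 147, 144 and 141 CPM and 77.4, 74.5 and 72.3 CPM (log2 -0.94 ± 0.06). Osbp2, an oxysterol-binding protein gene, had 13.2, 14.1 and 15.8 CPM and 2.52, 1.58 and 1.84 CPM, a 7.20-fold fall, and the sterol carrier gene Stard4 fell 1.33-fold. For each of the 5 genes all treated libraries lay below all controls. Fatty acid oxidation went the other way, with 9 of 18 tested genes higher, 1 lower and a median of 0.14. Cpt1a, which brings fatty acids into mitochondria, had 83.3, 84.9 and 83.2 CPM and 159, 155 and 156 CPM, a 1.87-fold rise (adjusted p = 8.42e-11). Slc25a20, the carnitine carrier of the same shuttle, rose 1.85-fold and the dehydrogenase gene Acadl 1.33-fold. The 1 fall was lost without any of several single libraries, among them DMSO replicate 2 of 6 days.

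Genes of glycolysis were mostly lower. Of 22 tested, 15 fell and 2 rose, with a median of -0.34. Pkm, the pyruvate kinase gene, had 1963, 1984 and 1851 CPM with DMSO and 1161, 1229 and 1210.2 CPM with WM-1119 (log2 -0.69 ± 0.04), and Ldha, which turns pyruvate into lactate, 1969, 2024 and 2035 CPM and 1345, 1438 and 1383 CPM (log2 -0.53 ± 0.04). The groups of both genes were well apart. Hk1, a hexokinase gene, rose instead, with 191, 198 and 198 CPM against 260.3, 263 and 275 CPM. The 24 genes of the list, 2 of them too low for the test, took 0.911%, 0.931% and 0.869% of the gene counts of DMSO replicates 1, 2 and 3 and 0.662%, 0.700% and 0.681% of WM-1119 replicates 1, 2 and 3.

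Of 21 tested hypoxia-inducible genes, 13 fell and 1 rose, with a median of -0.60. The tumour suppressor-like stress gene Ndrg1 had 11.4, 11.7 and 10.8 CPM against 2.52, 2.77 and 3.13 CPM (log2 fold change -2.01 ± 0.14, adjusted p = 1.05e-10), and Hif1a, the oxygen-regulated transcription factor itself, 280.3, 252 and 296 CPM against 229, 201 and 217 CPM (log2 -0.36 ± 0.06). The lactate exporter gene Slc16a3, a member of both lists, had 16.4, 13.8 and 9.02 CPM and 1.68, 2.37 and 1.43 CPM. Its controls differed among themselves, replicate 3 being lowest, and the call (log2 fold change -2.85 ± 0.92, adjusted p = 0.0204) was lost without DMSO replicate 1 (adjusted p = 0.0645) or WM-1119 replicate 1 (0.0678), 2 (0.0586) or 3 (0.0686). Ankrd37 had 21.0, 19.2 and 12.4 CPM and 1.68, 2.88 and 3.67 CPM, again with DMSO replicate 3 lowest, and its call (adjusted p = 0.0126) was lost without WM-1119 replicate 1 (0.0518). With limma voom neither gene was called (0.112 for Slc16a3 and 0.0600 for Ankrd37). The same order showed in the list as a whole. The median of its members, relative to the DMSO mean, was 0.12, 0.06 and -0.14 on the log2 scale in DMSO replicates 1, 2 and 3 and -0.65, -0.74 and -0.49 in the treated ones. The 1 rise ended when DMSO replicate 2, DMSO replicate 3, WM-1119 replicate 1 or WM-1119 replicate 3 was left out. Of 40 nuclear genes of oxidative phosphorylation, 2 rose and 2 fell, 10.0% against 30.7% of all genes. Of these, 8 fell and 3 rose without DMSO replicate 3 or with the replicate block, and 1 rose without any other single library except DMSO replicate 2 of 3 days. Of the 13 mitochondrially encoded genes 0 were called, and 1 with the replicate block or without DMSO replicate 2 of 3 days.

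Myc transcripts, which in this table include any that the transgene adds, fell by a small step. Myc had 1474, 1469 and 1645 CPM with DMSO and 1201, 1197 and 1255 CPM with WM-1119 (log2 -0.33 ± 0.05, adjusted p = 2.47e-05). All treated libraries lay below the controls, of which replicate 3 was highest. Its partner Max fell 1.15-fold, and among the MXD genes, whose products compete with MYC for MAX, Mxd3 rose 1.61-fold, Mxd4 1.22-fold and Mxd1 1.30-fold, while Mxi1 did not pass (log2 -0.15). The call of Mxd1 was lost without WM-1119 replicate 1 (adjusted p = 0.0674) or 2 (0.107). Of 41 MYC target genes of ribosome biogenesis and growth, 15 fell and 0 rose, with a median of -0.09. The share called was 36.6%, near the 30.7% of all genes, and 9 fell without WM-1119 replicate 3, and 2 rose with the replicate block. The nucleolar chaperone gene Npm1 had 1308, 1331 and 1340.1 CPM against 1057, 1124 and 1074 CPM and fell 1.22-fold, and Nop56, of the RNA methylation machinery of the nucleolus, fell 1.18-fold. The E-box CACGTG was found in the promoter windows of 11 of the 35 MYC targets with one (31.4%) and of 12.2% of all tested genes with one.

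The genes of the cytosolic ribosomal proteins leaned lower as a family. Of 76 tested, 46 fell, 0 rose and 75 had a value below 0, with a median of -0.41. Rps10 had 254, 273 and 248 CPM against 189.6, 205 and 179.7 CPM and Rpl6 501, 531 and 456 CPM against 389, 391 and 392 CPM, log2 values of -0.43 and -0.35. The controls were not even for this family. The median of its members stood at 0.12, 0.15 and -0.28 in DMSO replicates 1, 2 and 3, relative to their mean, and at -0.40, -0.30 and -0.47 in the treated ones, so DMSO replicate 3 lay nearer to the treated libraries. The number that fell was 28 without DMSO replicate 1, 26 without DMSO replicate 2, 27 without WM-1119 replicate 1 and 25 without WM-1119 replicate 3, and it was 68 without DMSO replicate 3. Many of these genes have processed pseudogenes that can share reads with them. Of 9 tested genes of polyamine synthesis and control, 4 fell and 1 rose, 55.6% against 30.7% of all genes. Odc1, the rate-limiting decarboxylase and a known MYC target, had 695, 726 and 747 CPM against 570.3, 588 and 561 CPM (log2 -0.33 ± 0.04). Srm, the spermidine synthase gene, fell 1.23-fold. Oaz2, an antizyme gene whose product takes the decarboxylase to the proteasome, rose 1.39-fold. The gene of antizyme 1, at a higher level, fell instead, with 161, 172 and 132 CPM against 125, 129 and 121 CPM (log2 -0.31 ± 0.10, adjusted p = 0.0370).

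Of 33 tested genes of the unfolded protein and integrated stress responses, 17 fell and 6 rose. Atf4, the central factor of the integrated stress response, had 202, 224 and 243 CPM against 166, 180.0 and 164 CPM (log2 -0.39 ± 0.06), and its partner gene Atf3 4.003, 3.68 and 3.45 CPM against 0.599, 0.735 and 0.408 CPM (log2 -2.66 ± 0.38). Ern1, which encodes the stress sensor IRE1, fell 1.63-fold, while the disulfide isomerase gene Pdia3, which also serves MHC class I assembly, rose 1.31-fold. The rises numbered 3 without DMSO replicate 1 or any single treated library of 6 days. Of 16 tested genes of cytosolic heat shock, 4 fell and 1 rose, 31.25% against 30.7% of all genes and so near that share. The falls numbered 2 without DMSO replicate 3 or WM-1119 replicate 1 of 6 days, or WM-1119 replicate 3 of 3 days. The heat shock gene Hspa1b had 8.59, 9.53 and 9.02 CPM with DMSO and 2.46, 1.98 and 2.18 CPM with WM-1119, a 4.08-fold fall without overlap. Hspa1b has a near-identical neighbour, so its reads may be split.

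Of the 8 CDK inhibitor genes, brakes on the cell cycle, 4 rose and 2 fell, and 2 rose when DMSO replicate 1, DMSO replicate 3, WM-1119 replicate 2 or WM-1119 replicate 3 was left out. Cdkn2a (chromosome 4, 89274473.0 to 89294619.0), whose locus encodes the CDK inhibitor p16 and the p53 activator ARF, had 10.98, 11.7 and 10.2 CPM in DMSO replicates 1, 2 and 3 and 31.1, 37.7 and 36.2 CPM in WM-1119 replicates 1, 2 and 3. The groups did not overlap, a 3.19-fold rise (log2 fold change 1.68 ± 0.09, adjusted p = 1.19e-11), and the counts do not separate the transcripts of the locus. Cdkn1a, the p53-induced inhibitor p21, had 3.27, 3.37 and 3.09 CPM and 7.85, 8.60 and 6.601 CPM, a 2.38-fold rise (adjusted p = 1.17e-06). Cdkn2b, the neighbour of Cdkn2a, stayed near 1 CPM with 0.366, 0.665 and 0.284 CPM and 0.659, 0.848 and 1.09 CPM, groups that overlap. Its call (adjusted p = 0.0319) was lost without DMSO replicate 1 (0.124) or 3 (0.0779), without WM-1119 replicate 2 (0.0823) or 3 (0.152), with the replicate number as a block in a fit of the 6-day libraries (0.0853) and with DESeq2 (0.105). Cdkn3 stood at an adjusted p of 0.0477 and lost its call without any single library of 6 days other than DMSO replicate 2. Among the other inhibitors, Cdkn1b, the p27 gene, had 83.3, 71.8 and 60.6 CPM against 54.3, 48.5 and 54.7 CPM and fell 1.38-fold, Cdkn1c, the p57 gene, fell 2.20-fold, and Cdkn2c and Cdkn2d did not pass (log2 -0.19 and 0.06).

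Other genes of the cell cycle changed by small steps, if at all. Of 25 genes of the G1 cyclins, RB and E2F families, 5 rose and 6 fell, 44% in all against 30.7% of all genes. The D cyclin genes split, Ccnd3 with 395, 403 and 429 CPM against 489, 503 and 503 CPM and Ccnd2 with 78.6, 74.1 and 77.2 CPM against 64.2, 59.0 and 61.5 CPM, log2 values of 0.29 and -0.32. E2f1 and Rb1 had log2 values of 0.01 and 0.02 and did not pass. Of 57 genes of DNA replication that E2F controls, 3 rose, led by the thymidine kinase gene Tk1 (1.30-fold), and 13 fell, led by the origin licensing gene Cdc6 (1.21-fold), 28.1% in all against 30.7% of all genes. The falls numbered 7 without WM-1119 replicate 1 or 3, and the rises 5 with the replicate block. Of 63 genes of G2 and mitosis, 5 rose, led by the kinesin gene Kif23 (1.21-fold), and 6 fell, led by the phosphatase gene Cdc25b (1.31-fold), 17.5% in all. Those counts were 3 rises without WM-1119 replicate 1, 9 rises with the replicate block and 3 falls without DMSO replicate 3. The proliferation marker Mki67 had 966, 1045 and 1054 CPM and 1190.0, 1042 and 1207 CPM, overlapping groups that did not pass (log2 0.17 ± 0.08).

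Trp53, the gene of p53, had 231, 245 and 246 CPM and 242, 257 and 264 CPM and did not pass, nor did its negative regulator Mdm2 (log2 0.08 and 0.12). Of 33 tested genes of p53 and its targets, 8 rose and 9 fell. Against the rise of Cdkn1a stood falls of Pmaip1, which encodes the death inducer NOXA, with 24.7, 23.98 and 24.8 CPM against 9.64, 7.58 and 7.28 CPM (log2 fold change -1.58 ± 0.11, adjusted p = 6.69e-10), of the stress gene Gadd45g, with 10.2, 10.9 and 7.76 CPM against 1.38, 1.98 and 1.77 CPM, and of Zmat3 (log2 -0.38). The groups of all 3 genes were apart. In the BCL-2 family, 7 of 17 tested genes rose and 5 fell. Bcl2, the survival gene, fell 1.53-fold, while Bcl2l11, which encodes the death inducer BIM, rose 1.27-fold and Bbc3, which encodes PUMA, 1.29-fold, so members that promote death moved both ways. The rises numbered 4 without WM-1119 replicate 2.

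Of 44 HOX and TALE homeobox genes, 15 had enough counts to be tested, 5 fell and 4 rose, and the fall of Hoxb8 had the smallest p. Hoxb8 (chromosome 11, 96279401.0 to 96285325.0), a factor known for holding blood progenitors in an immature state, had 182, 189 and 181 CPM with DMSO and 50.02, 52.6 and 52.1 CPM with WM-1119. The groups were tight and apart, a 3.57-fold fall (log2 fold change -1.83 ± 0.05, adjusted p = 2.81e-16). Its neighbour Hoxb7 had 47.6, 47.4 and 48.8 CPM against 18.8, 22.96 and 22.6 CPM and fell 2.23-fold, and Hoxb3 fell 1.77-fold. Of the TALE class of cofactor genes, Pknox1 fell 1.36-fold, Pbx3 rose from 0.610, 0.665 and 0.366 CPM to 2.10, 3.05 and 2.79 CPM (log2 2.24 ± 0.31), and Pbx2 and Tgif1 rose 1.15-fold and 1.13-fold. Meis2, near 1 CPM, stood at an adjusted p of 0.0436 (log2 -0.99) and lost its call with DESeq2 (0.108), from the 6-day libraries alone (0.0644), without a filter on low counts (0.0575) and when DMSO replicate 2, DMSO replicate 3, WM-1119 replicate 1 or WM-1119 replicate 3 was left out, among others. The call of Pbx2 was lost without DMSO replicate 3 (0.0557) or WM-1119 replicate 1 (0.0502), and that of Tgif1 without DMSO replicate 2 (0.0546) or WM-1119 replicate 3 (0.0957). Hoxb4, Hoxb5 and Hoxb6, which lie between Hoxb3 and Hoxb7, were not called by edgeR's test, with log2 values of -0.12 and -0.25 and one at 0 to 2 decimals. These 3 genes and Pbx2, Pbx3, Tgif1 and Meis2 are named here after their values were seen. In the HOXC cluster Hoxc4 alone had enough counts for the test, and it rose. Hoxc4 had 0 counts in all 3 control libraries and 25, 39 and 30 counts in WM-1119 replicates 1, 2 and 3, at least 56.3-fold higher against a floor of 3 counts over the DMSO group. Hoxc5, Hoxc6, Hoxc8, Hoxc9 and Hoxc10 were too low for the test. Over the 3 libraries of a group, Hoxc9 had 2 counts with DMSO and 26 with WM-1119, Hoxc6 had 7 and 21, and Hoxc10 had 1 and 11, while Hoxc5 and Hoxc8 each had 1 and 1.

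Of 20 tested transcription factor genes of early blood cells, 10 rose and 4 fell. Tal1, a master factor of blood stem cells and of the erythroid line, had 6.13, 7.31 and 7.68 CPM against 26.5, 23.3 and 23.5 CPM, a 3.53-fold rise without overlap (log2 fold change 1.82 ± 0.10, adjusted p = 2.17e-11). Gfi1b, an erythroid and platelet repressor, rose 1.53-fold. Hlx, a homeobox gene of blood progenitors, had 16.2, 17.3 and 16.6 CPM against 5.45, 5.37 and 6.74 CPM and fell 2.86-fold. Runx2 went from 1, 3 and 0 counts to 10, 21 and 16 counts, a ratio of depth-scaled counts of 21.1 (95% interval 7.72 to 80.7, counting error only). The 4 falls numbered 2 without DMSO replicate 1. Erythroid markers stayed low, and the 8 genes matched summed to 1.18 to 2.03 CPM with DMSO and 1.36 to 2.04 CPM with WM-1119.

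Several receptors usually found on myeloid cells were higher with WM-1119. Of 35 myeloid receptor and adaptor genes, 16 were tested, 10 rose, 0 fell and the median was 0.51. Csf2rb, the shared beta chain of the receptors for GM-CSF, IL-3 and IL-5, had 9.42, 9.09 and 10.97 CPM against 29.5, 28.3 and 31.2 CPM, and its paralog Csf2rb2 2.39, 1.77 and 2.11 CPM against 9.52, 8.26 and 9.26 CPM. Neither overlapped, with rises of 3.02-fold and 4.18-fold, and their shared sequence means that reads may be split between them. Csf1r, the receptor of macrophage colony-stimulating factor, had 1.05, 0.887 and 0.569 CPM and 4.25, 3.62 and 4.56 CPM (4.71-fold, adjusted p = 4.40e-08), the Fc receptor gene Fcgr3 13.98, 13.9 and 13.6 CPM and 28.1, 33.0 and 29.5 CPM (2.18-fold), and Treml2 rose 1.94-fold. Csf1r is also 1 of the 12 macrophage markers. Those markers summed to 173 to 178 CPM with DMSO and 159.9 to 160.9 CPM with WM-1119, led by Itgam, with C1qa, C1qb, C1qc and Mertk at 0 in all 6 libraries. The mannose receptor gene Mrc1, also among them and named after its values were seen, went the other way, from 60.9, 56.7 and 59.6 CPM to 31.5, 30.0 and 35.3 CPM (log2 fold change -0.88 ± 0.07, adjusted p = 5.38e-09).

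B cell identity genes moved in both directions. Of 37 tested transcription factor genes of B cells, 15 fell and 10 rose. Bach2, a repressor of plasma cell fate, had 328, 319 and 319 CPM against 162, 147 and 152 CPM, a 2.10-fold fall (log2 fold change -1.07 ± 0.05, adjusted p = 8.24e-13). Pax5, which fixes B cell identity, had 132, 137 and 136 CPM against 91.6, 86.6 and 93.2 CPM and fell 1.49-fold. Gfi1, a repressor of progenitors and of lymphoid cells, had 16.99, 17.02 and 14.2 CPM against 4.61, 4.64 and 5.10 CPM and fell 3.38-fold. In all 3 cases the groups were apart. The progenitor factor genes Lef1 and Sox4 fell 1.84-fold and 1.39-fold, and Ets1, which acts throughout the lineage, 1.77-fold.

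Among 21 tested genes of the pro-B and pre-B stages, 12 rose and 4 fell. Ly6d (chromosome 15, 74762056.0 to 74763567.0), which marks progenitors committed to the B lineage, had 2.83, 2.97 and 2.88 CPM with DMSO and 18.1, 19.1 and 18.4 CPM with WM-1119, a 6.42-fold rise (log2 fold change 2.68 ± 0.11, adjusted p = 2.61e-13). The cytokine receptor gene Flt3, which B cell progenitors switch off, had 5.13, 5.45 and 5.73 CPM against 1.44, 2.60 and 1.43 CPM and fell 2.91-fold. Of 37 genes of B cell receptor signalling and surface proteins, 18 rose and 6 fell. The lipid phosphatase gene Inpp5d, whose product SHIP1 dampens the receptor, had 458, 460.4 and 444 CPM against 658, 636 and 678 CPM (log2 0.53 ± 0.05). The coreceptor genes Cd38 and Cd22 fell 1.74-fold and 1.47-fold and the SRC-family kinase gene Fyn 2.07-fold.

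The immunoglobulin genes split as well. Igkc, the kappa light chain constant region, had 14.1, 15.2 and 13.0 CPM against 2.70, 2.66 and 2.79 CPM, a 5.18-fold fall (log2 fold change -2.37 ± 0.17, adjusted p = 1.23e-10), with every treated library under 3 CPM. Ighm, the µ heavy chain, rose by a small step, from 2369, 2443 and 2625 CPM to 2746, 2852 and 2847 CPM (log2 0.18 ± 0.04), while Ighd, the δ heavy chain spliced from the same transcript, fell 1.44-fold. Mzb1, a chaperone of antibody assembly, had 608, 633 and 608 CPM against 941, 1058 and 903 CPM and rose 1.57-fold.

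**Figure D3:**
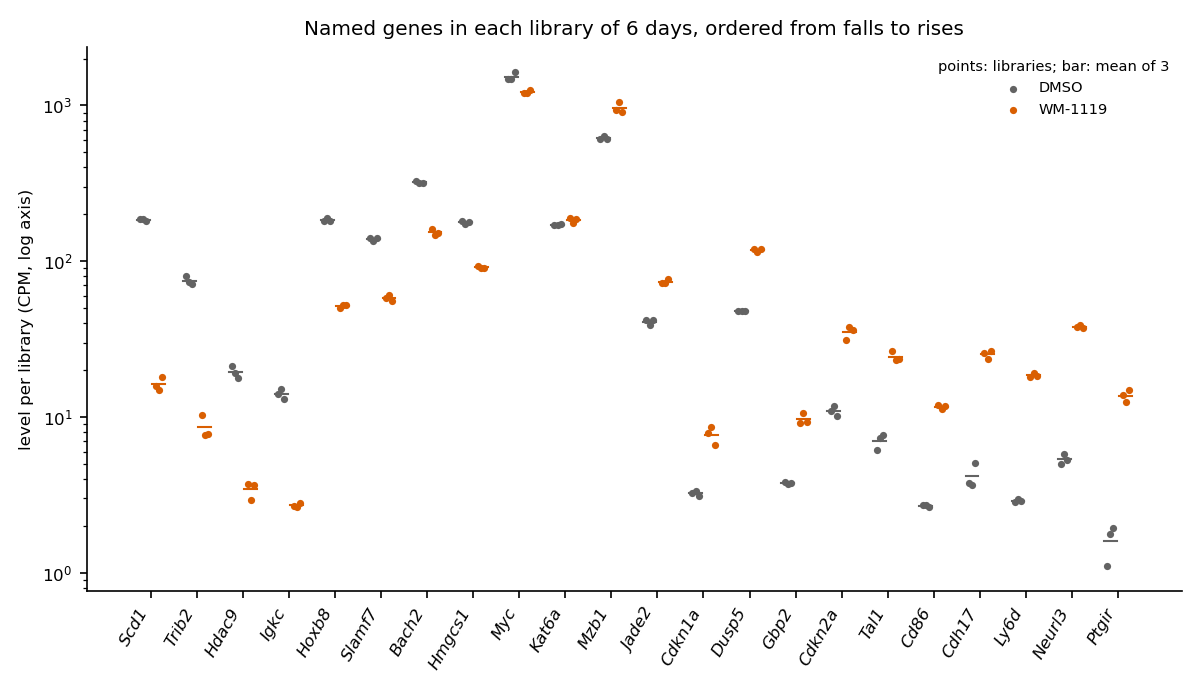
CPM on a log axis of 22 named genes in each of the 6 libraries of 6 days, with the mean of each group as a bar, ordered from the deepest fall to the largest rise. The groups overlap for none of the 22, and the rules that named genes favour changes without overlap or with a small p. Over all 11997 genes the groups do not overlap for 21.4% with WM-1119 higher and 19.9% with it lower. Kat6a lies with its groups nearly together, and Scd1 and Ptgir stand at the ends.

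Interferon-inducible genes with enough counts to be tested were mostly higher. Of 47 in the list, 32 were tested, 18 rose, 1 fell and the median was 0.26. The 1 fall was lost without any of several single libraries of 6 days. Many of the rest were near 0 in both groups, as named here after their values were seen. Over the 6 libraries Mx1 and Ifi44 had 0 counts and Ifit1, Ifit3 and Rsad2 6, 8 and 5. Oas2 had 33 counts, with 0.0488, 0 and 0.0406 CPM against 0.300, 0.905 and 0.613 CPM. Of 17 genes of guanylate-binding proteins and immunity-related GTPases, which attack vacuoles of intracellular microbes, 12 were tested. Of these, 8 rose and 1 fell, with a median of 0.58. Gbp2 had 3.81, 3.72 and 3.78 CPM with DMSO and 9.10, 10.6 and 9.32 CPM with WM-1119, a 2.56-fold rise (log2 fold change 1.36 ± 0.12, adjusted p = 4.06e-08). Gbp3, Gbp5 and Gbp7 had 9.91, 9.44 and 9.35 CPM against 23.002, 20.02 and 22.6 CPM, 1.39, 1.42 and 1.18 CPM against 3.53, 2.997 and 3.33 CPM and 2.001, 1.82 and 1.83 CPM against 5.81, 4.64 and 5.51 CPM, all without overlap. Gbp11 went down, from 2.05, 2.08 and 1.46 CPM to 1.08, 0.339 and 1.09 CPM (adjusted p = 0.00613), a call lost without WM-1119 replicate 2 (0.0613). The members of this family share sequence, and reads may be split between them. Of the others, the RNA-binding gene Ifit2 rose 2.13-fold, the nuclear body gene Sp100 1.83-fold and Trim30a 1.72-fold.

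Interferon-inducible promoters are known for response elements bound by IRF and STAT factors. The core GAAANNGAA lay in the window of 9 of the 9 tested GTPase genes with one and in 8.52% of all tested genes with one, and the STAT motif TTCNNNGAA in 6 of the 9 (66.7%) and in 8.05% of all. In the interferon-inducible list the counts were 11 of 26 (42.3%) and 9 of 26 (34.6%). The 250 bases before the start of Gbp2 (chr3:142620413-142620662, plus strand) and Gbp7 (chr3:142530086-142530335, plus strand) are shown because these neighbours rose together and share the first motif. Capitals mark the matches, on either strand.
Gbp2: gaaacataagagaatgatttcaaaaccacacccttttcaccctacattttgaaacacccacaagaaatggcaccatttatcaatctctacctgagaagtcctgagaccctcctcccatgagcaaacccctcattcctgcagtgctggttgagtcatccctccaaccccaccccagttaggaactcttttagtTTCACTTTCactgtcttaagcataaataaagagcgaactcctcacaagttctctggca
Gbp7: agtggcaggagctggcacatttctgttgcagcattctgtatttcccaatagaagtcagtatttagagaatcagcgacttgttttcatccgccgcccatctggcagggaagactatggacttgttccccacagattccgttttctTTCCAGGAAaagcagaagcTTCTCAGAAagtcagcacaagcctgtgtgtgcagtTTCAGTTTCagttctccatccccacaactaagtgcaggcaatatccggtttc
In Gbp2 the match TTCACTTTC, the core read on the minus strand, began 58 bases before the start, and in Gbp7 the match TTCAGTTTC began 52 bases before it. The window of Gbp7 also held the STAT matches TTCCAGGAA and TTCTCAGAA, 106 and 87 bases before the start, and that of Gbp2 none.

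Genes of MHC class I presentation rose by small steps. Of 24, 17 rose and 0 fell, with a median of 0.22. Tapbp, the peptide loading chaperone tapasin, had 71.2, 66.8 and 72.9 CPM against 94.0, 97.3 and 106 CPM (log2 0.49 ± 0.06) and the class I-like gene H2-Q7 75.1, 75.7 and 62.8 CPM against 95.7, 98.4 and 95.1 CPM (log2 0.44 ± 0.06). Of 16 class II genes, 13 were tested, 5 rose and 0 fell, 38.5% called against 30.7% of all genes and so near that share. The rises numbered 3 without DMSO replicate 1 or WM-1119 replicate 2. Too low for the test were Ciita, H2-Eb1 and H2-DMb2, with 3, 4 and 3 counts over the 6 libraries of 6 days. Ifi30, a lysosomal thiol reductase gene, had 7.35, 7.14 and 6.70 CPM against 17.01, 17.8 and 14.6 CPM (2.33-fold), H2-Eb2 rose 2.11-fold, and the invariant chain gene Cd74 1.63-fold from a level under 4 CPM. Of 16 tested genes that sense nucleic acids, 10 rose and 0 fell, among them the DNA sensor gene Tlr9 (2.25-fold) and its chaperone Unc93b1, with 191, 200.0 and 192 CPM against 312, 324 and 322 CPM. In that list 1 gene was below 0 at an unadjusted p under 0.05, and 1 fell with limma voom, with the replicate block and when either DMSO replicate 2 or WM-1119 replicate 1 of 6 days, or DMSO replicate 2 or 3 of 3 days, was left out.

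Cd86, a ligand that costimulates T cells, had 2.71, 2.70 and 2.64 CPM in the controls and 11.9, 11.2 and 11.7 CPM in the treated libraries, a 4.30-fold rise (log2 fold change 2.10 ± 0.12, adjusted p = 3.67e-11). Of 14 tested costimulatory and SLAM family genes, 7 rose and 2 fell. The SLAM receptor genes Cd84 and Slamf7 moved apart, Cd84 up 1.76-fold and Slamf7 down from 141, 135 and 140.1 CPM to 57.7, 60.5 and 55.3 CPM (log2 fold change -1.26 ± 0.05, adjusted p = 2.83e-13). Of 45 lysosomal genes, 19 rose and 3 fell, with a median of 0.13. Psap, the saposin precursor, had 604, 609 and 597 CPM against 882, 912 and 917 CPM and Grn, the progranulin gene, 144, 150.1 and 142 CPM against 213, 228 and 225 CPM, rises of 1.498-fold and 1.53-fold. The cathepsin gene Ctsl fell 1.93-fold.

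In a list of receptor genes for prostanoids, sphingosine phosphate, chemokines and some other ligands, 9 of 16 tested rose and 2 fell. Adgrg1 and P2ry12 are among those with other ligands, and Adgrg1 also counts among the adhesion genes below. Ptgir (chromosome 7, 16906490.0 to 16910905.0), the prostacyclin receptor, had 1.10, 1.77 and 1.95 CPM with DMSO and 13.8, 12.4 and 14.9 CPM with WM-1119, an 8.98-fold rise (log2 fold change 3.17 ± 0.20, adjusted p = 2.24e-11). The adhesion receptor gene Adgrg1 had 2.73, 2.88 and 3.29 CPM against 12.8, 12.9 and 13.5 CPM and the ADP receptor gene P2ry12 1.95, 2.17 and 1.87 CPM against 5.57, 6.22 and 6.94 CPM. For all 3 the lowest treated library was well above the highest control. The chemokine receptor gene Ccr7, which guides lymphocytes to lymph nodes, fell 1.501-fold. Of 31 tested adhesion genes, 14 rose and 5 fell, the falls being 3 without DMSO replicate 3 and 2 without WM-1119 replicate 1. Cdh17 (chromosome 4, 11758157.0 to 11817905.0), a cadherin found on B cell subsets, had 3.78, 3.68 and 5.04 CPM against 25.9, 23.7 and 26.4 CPM, a 6.13-fold rise (log2 fold change 2.62 ± 0.11, adjusted p = 5.07e-13). Itgal, the alpha chain of the integrin LFA-1, had 147, 155 and 150.2 CPM against 251, 259 and 269 CPM, and its ligand Icam1 and the integrin activator Fermt3 rose 1.44-fold and 1.55-fold. Jam2, a junctional adhesion gene, had 15.8, 14.5 and 14.2 CPM against 4.01, 2.997 and 2.99 CPM and fell 4.46-fold.

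The smallest p among the rises belonged to Neurl3 (chromosome 1, 36264602.0 to 36274674.0), a ubiquitin ligase gene. It had 4.95, 5.81 and 5.32 CPM in DMSO replicates 1, 2 and 3 and 37.98, 39.0 and 37.1 CPM in WM-1119 replicates 1, 2 and 3, a 7.17-fold rise with no overlap (log2 fold change 2.84 ± 0.09, adjusted p = 4.75e-15). Other large rises were those of Apbb1, an adaptor gene (2.32, 2.88 and 2.68 CPM against 11.1, 11.5 and 10.4 CPM), and of the kinase gene Dstyk (3.34-fold) and the phospholipase gene Plcb2 (3.19-fold). Bhlhe41, a repressor of the clock, had 10.1, 10.1 and 6.99 CPM against 1.86, 1.98 and 1.77 CPM and fell 4.87-fold. Ppp1r9a, which binds actin, had 11.5, 9.97 and 10.9 CPM against 2.40, 1.87 and 2.59 CPM and fell 4.80-fold. Capsl and Svopl nearly went out: Capsl had 40, 23 and 29 counts with DMSO and 1, 2 and 2 with WM-1119, and Svopl 56, 27 and 24 counts and 2, 2 and 2.

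Feedback regulators of ERK signalling changed in opposite directions. Dusp5, a nuclear ERK phosphatase, had 47.7, 47.7 and 48.0 CPM against 120.5, 115 and 119 CPM, a 2.47-fold rise (log2 fold change 1.30 ± 0.06, adjusted p = 2.90e-12), and the cytoplasmic ERK phosphatase gene Dusp6 156, 141 and 152 CPM against 229, 211 and 223 CPM (1.48-fold). Dusp16, which acts on JNK and p38, had 23.5, 22.1 and 24.7 CPM against 7.97, 8.60 and 8.44 CPM, and the inhibitor gene Spry4 14.6, 13.0 and 13.2 CPM against 7.13, 6.62 and 8.03 CPM, falls of 2.81-fold and 1.90-fold. None of the 4 pairs of groups overlapped. Rasgrp2, which activates RAP GTPases, rose 1.98-fold. Of 26 tested genes of this list 7 rose and 5 fell, the falls being 3 without DMSO replicate 3 or WM-1119 replicate 2. Of 24 tested immediate-early genes, which ERK and other signals induce within minutes, 12 fell and 2 rose (4 with the replicate block), with a median of -0.24. Egr1 had 12.8, 11.5 and 10.8 CPM against 4.19, 3.51 and 3.67 CPM and Fos 3.05, 3.24 and 3.01 CPM against 1.02, 0.509 and 0.749 CPM, falls of 3.12-fold and 4.07-fold, while Klf10 rose 1.53-fold.

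Of 36 genes of JAK-STAT signalling, 19 rose and 5 fell, with a median of 0.18. The kinase genes Jak1 and Jak2 had 256, 258 and 263 CPM against 362, 333 and 358 CPM and 39.98, 36.5 and 39.7 CPM against 60.4, 59.1 and 59.96 CPM, rises of 1.36-fold and 1.54-fold without overlap, and the interleukin-6 receptor gene Il6ra rose 1.58-fold. Of 26 tested NF-kB genes, 9 rose, among them the subunit gene Nfkb1 (1.25-fold), and 1 fell, 38.5% called against 30.7% of all genes. The fall was lost without DMSO replicate 1 or WM-1119 replicate 3 and joined by a second without DMSO replicate 3. Of the Tribbles pseudokinases, scaffolds that steer ubiquitin ligases, Trib2 (chromosome 12, 15791725.0 to 15816962.0) had 80.0, 73.1 and 70.9 CPM with DMSO and 10.3, 7.63 and 7.76 CPM with WM-1119. The highest treated library held less than any control by a wide margin, an 8.72-fold fall (log2 fold change -3.12 ± 0.10, adjusted p = 8.32e-16). Trib1 rose 1.26-fold and Trib3 fell from a level near 1 CPM (log2 -1.68 ± 0.51). In sialic acid metabolism 3 of 18 tested genes rose and 5 fell, 44.4% in all against 30.7% of all genes. Cmah, which makes the sialic acid that humans lack, had 97.1, 92.6 and 88.7 CPM against 37.4, 33.0 and 37.0 CPM and fell 2.60-fold. The sialyltransferase genes St3gal6 and St3gal1 moved apart, with 47.4, 44.6 and 47.5 CPM against 16.1, 15.9 and 16.9 CPM and 33.6, 34.9 and 31.1 CPM against 66.4, 70.8 and 69.7 CPM.

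**Figure D4:**
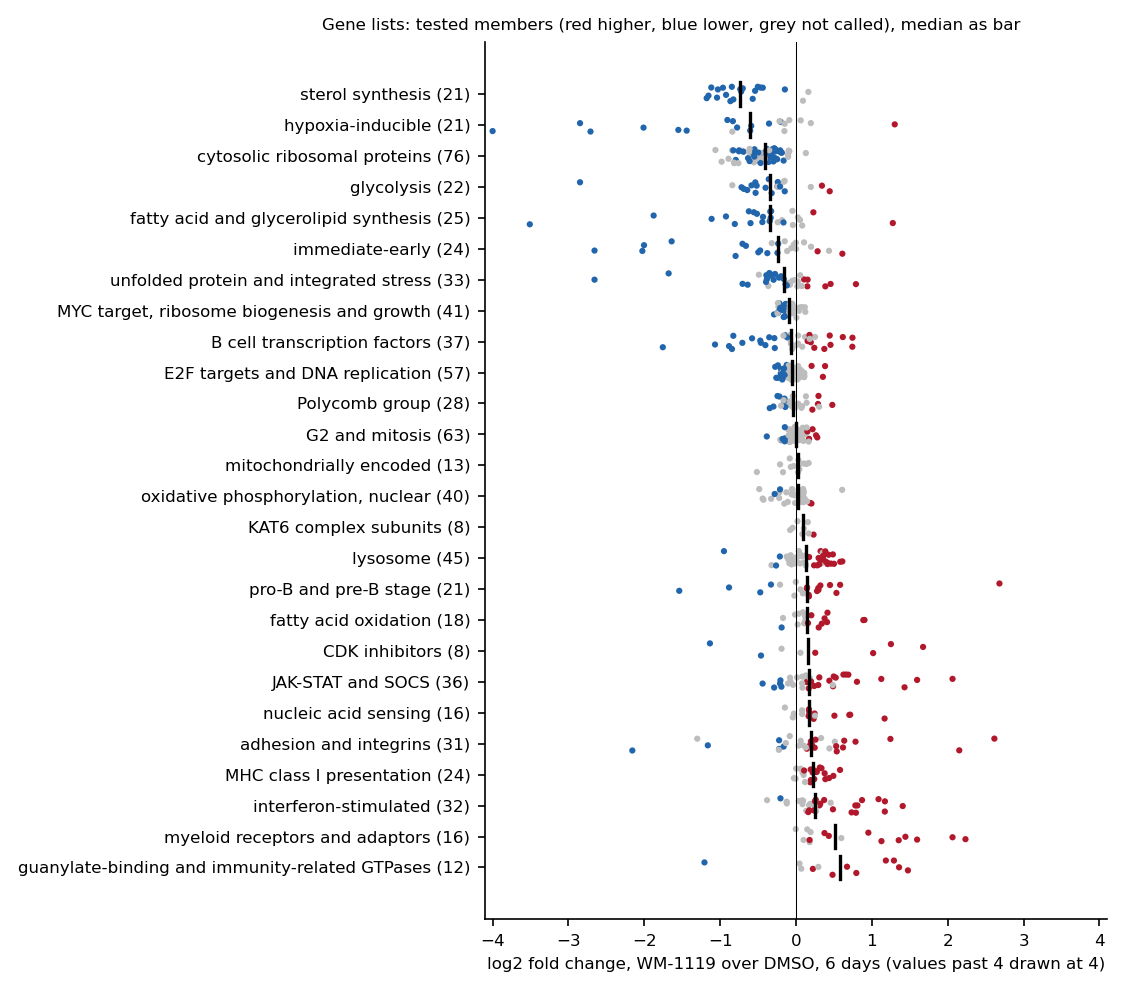
Log2 fold change of WM-1119 over DMSO at 6 days for every tested member of each gene list, red where called higher, blue where called lower and grey where not called, with the list's median as a bar and values past 4 drawn at 4. Sterol synthesis (19 of 21 lower) and the guanylate-binding family (8 of 12 higher) lie to either side, and the list of G2 and mitosis lies around 0.

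To ask which changes were still moving between the time points, the effect at 6 days was compared with that at 3 days in the same fit. The difference passed the test for 83 of 11997 genes (0.692%), 47 above and 36 below 0, and 986 genes had an unadjusted p under 0.05. Among the 83, 58 were farther from 0 at 6 days in the direction they had at 3 days, 11 were nearer to 0 and 14 had the opposite sign. The count was 47, 54 and 215 without DMSO replicate 1, 2 or 3 of 6 days, 44, 43 and 39 without WM-1119 replicate 1, 2 or 3 of 6 days, 48 and 50 without DMSO replicate 1 or 2 of 3 days, 55 and 44 without WM-1119 replicate 2 or 3 of 3 days, and 4 without the libraries over 1 CPM of Col1a1. Most calls were shared in direction: 2238 genes were called at both times and 2236 of them went the same way. A further 1444 genes were called only at 6 days. Of those, 1333 had the same sign at 3 days and the difference between times was called for 11. Over the 1444 genes the median size was 0.27 at 6 days and 0.12 at 3 days in the direction of 6 days. Being called only at 6 days selects for a larger value at 6 days, so these medians do not show growth. Of the 2937 genes called at 3 days, 699 were not called at 6 days, and 1471 (50.1%) were farther from 0 at 6 days.

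Scd1, Scd2 and Trib2 fell further between the times, and the difference was called in every alternative fit run. At 3 days Scd1 had 129, 136 and 142 CPM in the DMSO libraries and 40.5, 34.7 and 38.1 CPM in the WM-1119 libraries (log2 -1.85), and its difference between times was -1.66 ± 0.10 (adjusted p = 1.81e-09). Trib2 had 76.8, 72.6 and 74.5 CPM and 27.7, 27.8 and 24.9 CPM at 3 days (log2 -1.47; difference -1.65 ± 0.12, adjusted p = 7.47e-08). For Scd2 the effect was -1.05 at 3 days and -1.88 at 6 days. The control libraries of 6 days held more of Scd1 and Scd2 than those of 3 days (638, 632 and 558 CPM for Scd2), so both groups moved. Of the 21 genes of cholesterol synthesis, whose median was -0.47 at 3 days and -0.74 at 6 days, the difference was called for 9, among them Lss (-0.53 ± 0.10). For the named genes of this list it was mainly the control level that differed between the days. Mean levels at 3 and 6 days were 91.6 and 91.5 CPM with WM-1119 and 137 and 178 CPM with DMSO for Hmgcs1. For Cyp51 they were 97.9 and 95.9 CPM with WM-1119 and 153 and 196 CPM with DMSO, for Msmo1 41.5 and 39.6 CPM against 66.1 and 88.0 CPM, and for Lss 28.4 and 25.1 CPM against 44.4 and 56.8 CPM. Days were not compared within a treatment. In sterol regulation the difference was called for Insig1 (-0.50 ± 0.08) and Osbp2 (-1.36 ± 0.22). Mean levels of Insig1 at 3 and 6 days were 81.0 and 74.7 CPM with WM-1119 and 110 and 144 CPM with DMSO. Those of Osbp2 were 5.57 and 1.98 CPM with WM-1119 and 15.8 and 14.4 CPM with DMSO. Cpt1a, of fatty acid oxidation, rose further, by 0.44 ± 0.08.

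Cdkn1a was not called at 3 days, with 4.55, 4.25 and 3.75 CPM against 2.97, 4.05 and 4.51 CPM (log2 -0.12), and its difference between times was 1.37 ± 0.22 (adjusted p = 0.00344). The 3-day groups overlap and the 6-day groups do not. Cdkn2a rose at both times, from a log2 value of 0.98 to 1.68 (adjusted p of the difference 0.00858, and 0.0508 without DMSO replicate 1 of 3 days). The effects on Igkc, Slamf7, Cmah and Ppp1r9a lay farther below 0 at 6 days, by -1.25, -0.46, -0.60 and -1.22. Those on Adgrg1, Apbb1 and Cyp4f18, a fatty acid hydroxylase gene, lay farther above 0, by 1.17, 1.11 and 0.42. Shifts of the controls enter these values. From 3 to 6 days mean Igkc went from 9.02 to 14.1 CPM with DMSO and from 4.23 to 2.71 CPM with WM-1119. Cmah went from 77.9 to 92.8 CPM and from 45.4 to 35.8 CPM, and Slamf7 from 124 to 139 CPM and from 71.6 to 57.8 CPM. Cyp4f18 went from 68.2 to 54.3 CPM and from 101 to 107 CPM. Gbp2 and Cd86 had differences of 0.81 and 0.78, but 9 and 10 of the 12 fits without 1 library lost those calls.

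A few genes turned back. Cd300ld, an immune receptor gene, was called lower at 3 days (log2 -0.50) and higher at 6 days, with 16.6, 17.2 and 16.1 CPM against 25.1, 24.4 and 22.7 CPM (log2 0.54 ± 0.08). Actn1, which crosslinks actin, fell at 3 days (log2 -0.48) and had overlapping groups at 6 days, 246, 256 and 246 CPM and 259, 249.5 and 245 CPM (log2 0.01). Plce1, a phospholipase gene, and H19, an imprinted noncoding RNA, were well below the controls at 3 days (log2 -1.24 and -1.18) and near them at 6 days (-0.24 and -0.26). The 6-day call of H19 ended when DMSO replicate 1, DMSO replicate 3, WM-1119 replicate 1 or WM-1119 replicate 3 was left out. Gimap3, a lymphocyte GTPase gene, went from -0.60 to 0.21, and the latter did not pass. Apart from Scd1, Scd2 and Trib2, the differences between times named in these paragraphs were lost without the libraries over 1 CPM of Col1a1, a fit with 1 library in each 6-day group.

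**Figure D5:**
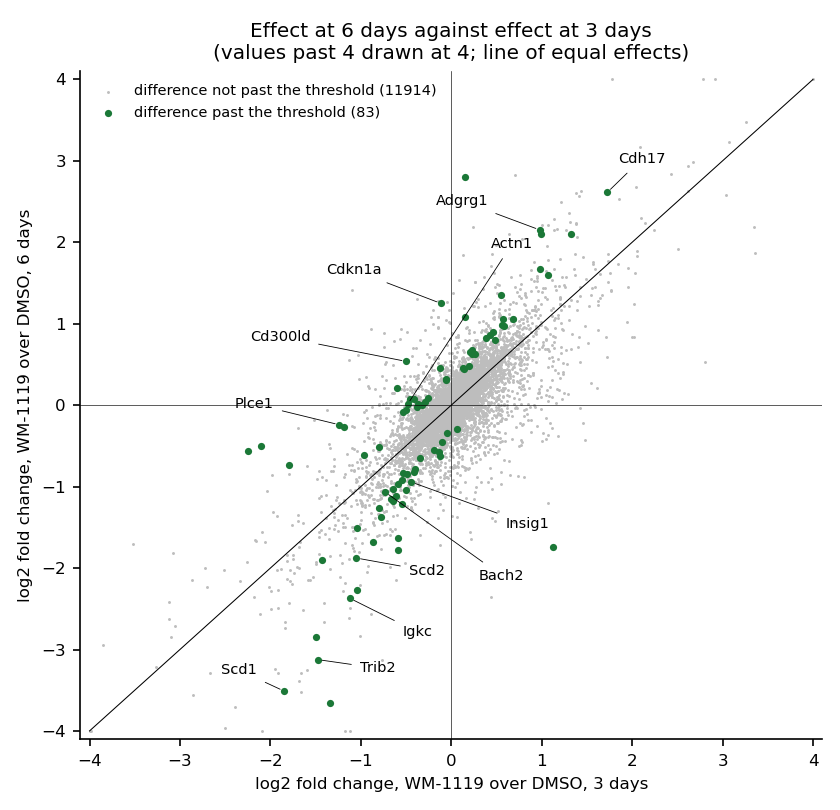
Log2 fold change of WM-1119 over DMSO at 3 days (horizontal) and at 6 days (vertical) for 11997 genes, with values past 4 drawn at 4 and a line of equal effects. Green points are the 83 genes whose difference between times passed the test; Scd1, Scd2 and Trib2 lie below the line, Cdkn1a above it, and Cd300ld where the sign turned.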

How the data were processed

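Messenger RNA of 12 samples was measured, 4 groups of 3. The deposited table holds whole-number read counts per gene for each library, made by the authors and not normalized, per the file headers; featureCounts and build mm10 come from the submitters' processing notes. Aligner, strandedness of counting and handling of multi-mapping reads were not given in the sources used here, which bears on paralogs, overlapping and antisense genes. Of 27179 entries, 874 without a gene identifier were left out (0.305% to 0.360% of the counts of a 6-day library). Symbols and positions of 25275 identifiers came from RefSeq of the same build.

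Library sizes were scaled by TMM. The group-wise filterByExpr rule for low counts left 11997 genes (205 without a symbol), which entered 1 quasi-likelihood fit of 4 group means with a robust prior in edgeR 4.0.16 under R 4.3.3. Treated and control libraries were contrasted at 6 days and at 3 days, and the 2 effects with each other. All p-values are two-sided, carry the Benjamini-Hochberg adjustment across the 11997 genes and were read at 0.05. With 3 libraries a side, an exact permutation test has a smallest p of 0.1. Replicates varied with a biological coefficient of variation of 5.69%. A 6-day log2 fold change had a median standard error of 0.07. The script was checked on simulated data with known changes. List levels are medians of log2(CPM + 0.5) over members.

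Named genes were the 12 largest rises and falls among called genes of at least 5 CPM without overlap, the 6 rises and 6 falls of smallest p, up to 5 called members of smallest p of each list, every member of a list with at most 12 tested, a fixed set of genes, the 5 positive and 5 negative genes of smallest p of the difference between times, and genes near 0 in 1 group. A few genes that the rule names are not reported here. The members, lists and genes were chosen with earlier results of these data known. Alternatives comprised scaling by RLE or upper quartile, other filters, DESeq2 1.42.0, limma voom (3.58.1), the 6-day libraries alone, a replicate block, omission of each 6-day library in turn, thinning, omission of libraries over 1 CPM of Col1a1, and the fibroblast level as a covariate. The 3-day libraries were left out in turn after seeing the data. Same-numbered libraries of the 6-day groups deviated together across genes (correlations of 0.193, 0.144 and 0.243; other pairs -0.222 to 0.0623), so the numbers were taken to pair them, from the data and not from the labels.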

Additional observations from a re-analysis of the deposited data

Results flagged for a closer look

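The effect of WM-1119 at 6 days differed from that at 3 days, by edgeR's test of the difference itself, for 36 of the genes named. Values are the log2 effect at 6 days minus that at 3 days. A value below 0 means only that the effect lay lower at 6 days, and a shift of the control level also enters it.

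Among lipid genes, Scd1 had -1.66, Scd2 -0.83, Osbp2 -1.36, Lss -0.53, Insig1 -0.50, Fads2 -0.50, Msmo1 -0.48, Cyp51 -0.38, Hmgcs1 -0.38, Acsl3 -0.38 and Srebf1 -0.31, and Cpt1a had 0.44. Of these, the call was lost in 10 of the 12 fits without 1 library for Srebf1, in 8 for Acsl3, in 5 for Msmo1, in 4 for Hmgcs1 and in 1 for Cyp51.

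Among genes of the cell cycle, chromatin and B cell identity, Trib2 had -1.65, Cdkn1a 1.37, Cdkn2a 0.69, Hdac7 -0.36, Igkc -1.25, Slamf7 -0.46, Bach2 -0.34 and Ets1 -0.29. The call was lost in 7 of those fits for Hdac7 and Ets1, in 3 for Bach2 and in 1 for Cdkn2a.

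Among immune, signalling and surface genes, Gbp2 had 0.81, Cd86 0.78, Jak1 0.30, Jak2 0.39, Adgrg1 1.17, Cdh17 0.89, St3gal1 0.37 and Cmah -0.60. The call was lost in 10 fits for Cd86, in 9 for Gbp2, Jak2 and St3gal1, in 5 for Jak1 and in 2 for Cdh17. The remaining genes were Apbb1 with 1.11, Cyp4f18 with 0.42 and Ppp1r9a with -1.22, which moved farther from 0, and Cd300ld with 1.04, Plce1 with 1.00, H19 with 0.92, Gimap3 with 0.81 and Actn1 with 0.49, which were below the controls at 3 days.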

How the results depend on the processing

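The number of genes called at 6 days was 3682 and lay between 2918 and 3798 when 1 library of 6 days was left out. It was 3688 with RLE and 3664 with upper-quartile scaling, 3605 without a filter, 3601 with a filter of 1 CPM in 3 libraries, 3525 with DESeq2, 3667 with limma voom (which ended the calls of Slc16a3 and Ankrd37), 3284 from the 6-day libraries alone, 3662 with the fibroblast marker level as a covariate and 3372 with all libraries thinned to the smallest. With the replicate number as a block it was 4294 from the 6-day libraries and 3881 from all 12, and among the named genes the block ended the call of Cdkn2b alone. Without the libraries over 1 CPM of Col1a1 the count was 1436 (769 higher, 667 lower) and the difference between times was called for 4 genes. That fit has 1 library in each 6-day group, and 33 of the 180 named genes lost their call in it: Brpf3, Hdac7, Hdac11, Bmi1, Slc16a3, Ankrd37, Max, Mxd1, Mxd4, Nop56, Rpl6, Srm, Oaz2, Cdkn2b, Cdkn3, Cdkn1b, Cdkn1c, Ccnd2, Ccnd3, Cdc6, Cdc25b, Bcl2, Bbc3, Ighm, Gbp11, Cd74, Nfkb1, Trib1, Trib3, H19, Pbx2, Tgif1 and Meis2. There 16 of 21 cholesterol synthesis genes, 6 of 22 glycolysis genes, 2 of 21 hypoxia-inducible genes and 15 of 76 ribosomal protein genes fell, and 7 of 32 interferon-inducible and 5 of 12 guanylate-binding family genes rose. The count of differences between times, 83, lay between 39 and 215 when any 1 of the 12 libraries was left out. No named gene changed direction among those called. Depth limits genes under about 1 CPM, where the shallower treated libraries hold few counts.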

Other observations

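Of 20 aminoacyl-tRNA synthetase genes, which charge tRNA with amino acids, 8 fell and 1 rose at 6 days, 45% called against 30.7% of all genes, with a median of -0.07. The 1 rise ended when DMSO replicate 1, DMSO replicate 2, WM-1119 replicate 2 or WM-1119 replicate 3 was left out, and there were 2 without DMSO replicate 3 of 6 or of 3 days or with the replicate block. Of 27 genes of serine, one-carbon and nucleotide synthesis, 3 rose and 4 fell, 25.9% against 30.7% of all genes. Of 34 tested genes of PI3K, AKT and mTOR signalling, 10 rose and 2 fell, 35.3% in all. The falls were 4 without DMSO replicate 2 of either day or WM-1119 replicate 1 of 6 days, 1 without DMSO or WM-1119 replicate 3 of 6 days, and 6 with the replicate block. Of 53 DNA repair genes, 5 rose and 10 fell, 28.3% in all. The falls were 6 without DMSO replicate 1 or WM-1119 replicate 2, and the rises 2 without any single library of 6 days other than DMSO replicate 3. Ranked by level and cut into 4 equal groups, 23.8% of the lowest genes (up to 8.42 CPM) and 34.5% of the highest were called.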
